A study of Mus musculus with 4 samples.

Results

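Genes of the Wnt signalling pathway were examined by RNA-seq in basal cells and in the luminal cells that derive from them, both sorted from duct tips of the mouse prostate while it was still growing. The pathway genes were chosen by name, with earlier results of these data known. They were 15 Wnt ligands, 2 genes for ligand secretion, 10 Frizzled receptors, 5 co-receptors and 7 genes of the R-spondin axis. The others were 6 secreted antagonists, 5 genes of beta-catenin and its inhibitors and 4 TCF/LEF transcription factors. All 54 were found among the 49671 genes of the deposited table, and 47 of them passed the filter on low values, as did 18737 genes in all. Ventral lobes of untreated CD-1 mice between postnatal days 10 and 13 were cut to separate the tips from the main ducts. The cells were dissociated with collagenase, and cells carrying CD45 (leukocytes), CD31 (endothelium) or CD140a (mesenchyme) were gated out of both groups. Basal cells were sorted as EpCAM high and CD49f high, and luminal cells as EpCAM high and CD49f low. There were 2 libraries of each: the basal ones carry the replicate numbers 1 and 3, the luminal ones 3 and 2. Tissue of several mice was used, and the labels do not say whether the libraries of a group came from separate animals, so p-values measure only the spread between these samples.

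Wnt proteins are lipid-modified signals that are made with the help of Porcupine and carried to the cell surface by Wntless. They bind Frizzled receptors together with LRP5 or LRP6, which stabilizes beta-catenin and lets it act with TCF/LEF factors, or together with ROR and RYK receptors, which feed other branches. R-spondins acting through LGR4, LGR5 and LGR6 protect Frizzled receptors from removal by ZNRF3 and RNF43. In the prostate, Wnt ligands and their inhibitors pass between mesenchyme and epithelium while ducts grow and branch.

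Values are normalized read counts, which the authors scaled so that aligned reads had the same total in each library, and rounded. In each sentence that lists 4 values, the order is basal replicates 1 and 3, then luminal replicates 3 and 2. A single read was worth 6.26 and 6.49 in the basal libraries but 19.4 and 31.2 in the luminal libraries, which held about 3194331, 3080318, 1036682 and 643270 reads on genes. A luminal value of 58.1 in replicate 3 or 93.5 in replicate 2 therefore rests on 3 reads. Nuclear protein-coding genes took 76.0% and 74.7% of the basal and 57.3% and 64.2% of the luminal totals. The sorted identities were visible in the keratins: Krt5, a basal keratin, was at 18481, 15824, 77 and 93, and Krt8, a luminal keratin, at 3012, 4287, 13302 and 8320. Fibroblast and smooth muscle markers were nevertheless present in all 4 libraries. The 10 fibroblast markers summed to 112265, 222303, 86954 and 214494, and the 6 smooth muscle markers to 30687, 53240, 9984 and 61015. The groups overlapped in 9 of the 10 fibroblast markers. The exception was Dcn, at 45830, 47724, 5770 and 20256, with a basal average 3.59-fold the luminal one (edgeR adjusted p = 0.035, limma adjusted p = 0.143). Pdgfra, which encodes the CD140a used to exclude cells, was at 3307, 4144, 2575 and 8383. The 7 immune markers summed to 3431, 1753, 833 and 2149, with the defining gene Ptprc at 150, 6, 0 and 0. The 6 endothelial markers summed to 1585, 1591, 600 and 1745. Luminal replicate 2 thus held more fibroblast, smooth muscle and endothelial marker signal than luminal replicate 3, while most of the immune difference was Cd3e alone, at 639 and 1807 in luminal replicates 3 and 2.

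Across the pathway, values leaned towards the basal cells. The list was chosen with earlier results of these data known, so the shares of all genes set beside it describe the list and do not test it. The median log2 fold change, luminal minus basal, was -1.15 over the 47 members that passed the filter and -0.10 over all genes tested. With the members at 0 in both luminal libraries set at their bound, the member median was -1.09. In 28 members both luminal libraries lay below both basal libraries, in 2 they lay above, and in 17 the groups overlapped; among all genes tested these arrangements made up 27.3% (lower) and 23.6% (higher). Group averages were at least 2-fold lower in luminal cells for 24 members and at least 2-fold higher for 2, against 16.3% and 18.3% of all genes. limma called 1 member lower and 0 higher at an adjusted p under 0.05, where it called 0.438% of all genes lower and 0.256% higher. At an unadjusted limma p under 0.05 there were 20 members lower and 0 higher, beside 10.7% and 7.82% of all genes. edgeR, run on whole reads recovered from the values, called 7 members lower and 0 higher, beside 2.75% and 2.42% of all genes. Of the 47 members, 5 passed the filter only through the basal group (Wnt6, Wnt10a, Wnt10b, Rspo3 and Lgr6) and 1 only through the luminal group (Wnt9a), and such genes tend to differ because of how they were kept. Among the 41 members that passed in both groups, 25 were lower without overlap, 20 were at least 2-fold lower and 6 were called lower by edgeR, beside 28.3%, 12.0% and 3.18% of the 14953 genes that passed in both groups. The median log2 fold change of these 41 was -1.05. In a bulk library, fewer cells that express a gene and less of its RNA per cell cannot be told apart. Rescaling to nuclear protein-coding genes moved the all-gene median from -0.10 to 0.22 and the member median to -0.81; a constant factor per library shifts both alike. It also lowered the number of members at least 2-fold lower from 24 to 15, and turned limma's calls over all genes from 82 lower and 48 higher to 65 and 64.

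**Figure D1:**
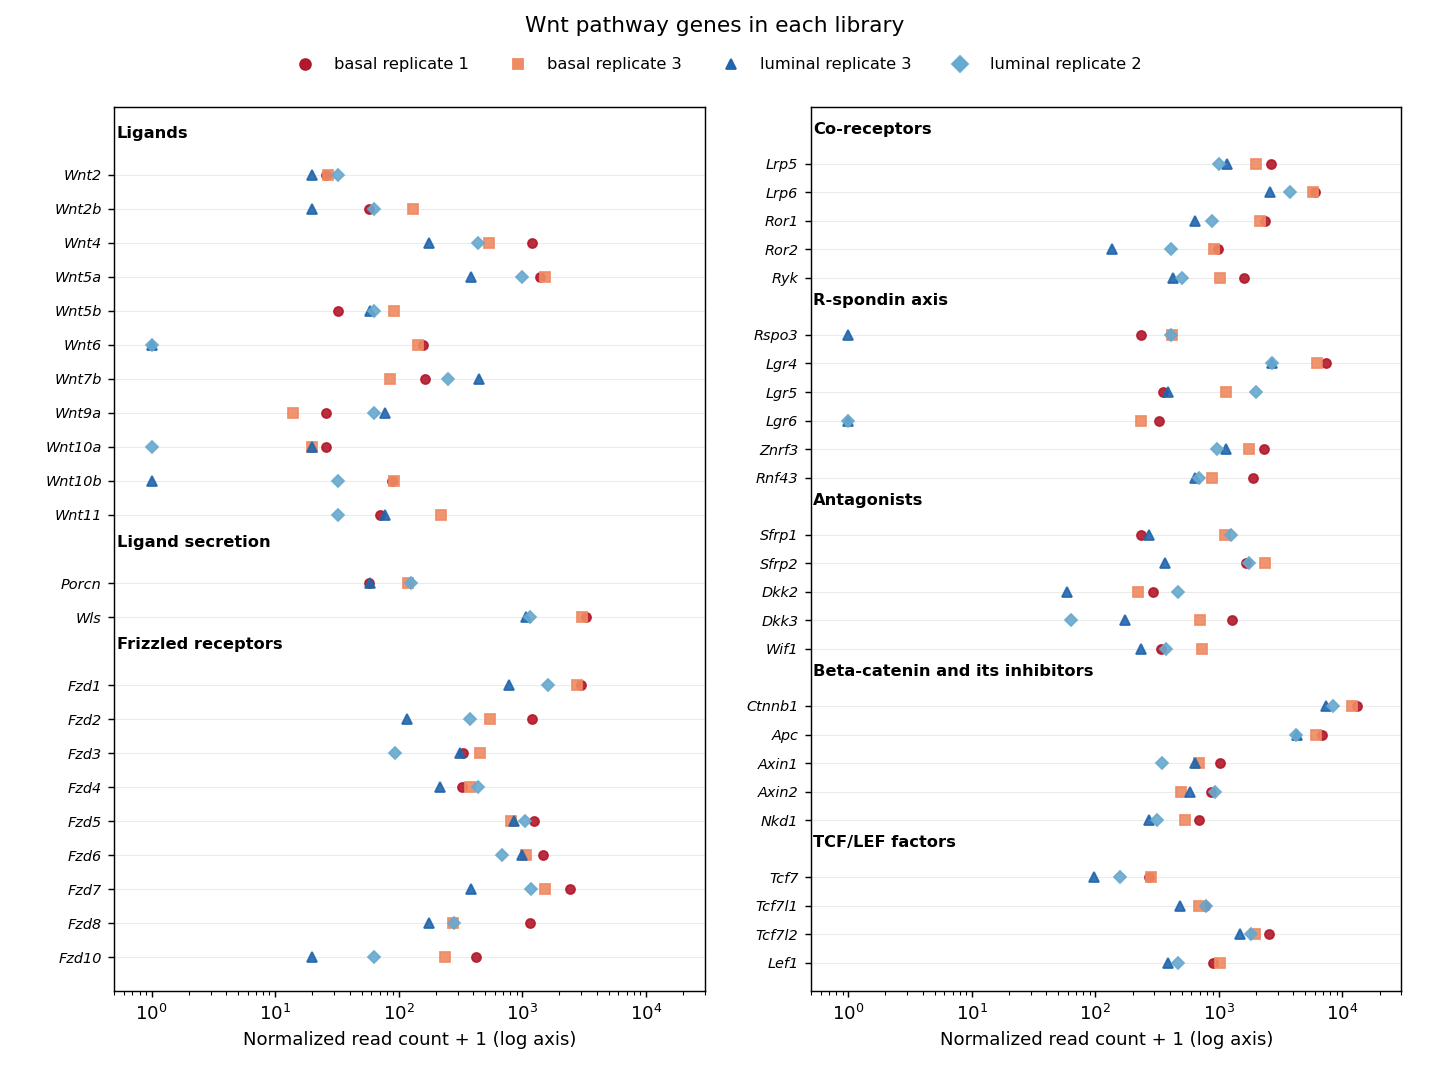
Normalized read count plus 1 (log axis) of the 47 Wnt pathway genes that passed the filter, 1 point per library, grouped by role. The luminal points (blue) lie left of both basal points (red and orange) in 28 genes and right of both in Wnt7b and Wnt9a. Points at 1 are libraries in which the gene was at 0.

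The ligands most abundant per kb of exon in basal cells were Wnt4 and Wnt5a, at 206 and 187 normalized counts per kb as group averages, followed by Wnt6 at 68.4. In luminal cells Wnt5a stood at 88.5, Wnt4 at 72.7 and Wnt7b at 70.8 normalized counts per kb. These 3 luminal averages differed by less than the spread between the luminal libraries. Wnt4, a ligand of epithelial and mesenchymal development, was at 1190, 539, 174 and 436. Wnt5a, the main ligand of the ROR receptors, was at 1390, 1539, 387 and 997. For both genes the luminal libraries lay below both basal libraries, and luminal replicate 3 was the lowest. The log2 fold change was -1.54 ± 0.62 (SE) for Wnt4 and -1.23 ± 0.49 for Wnt5a, and neither passed limma (adjusted p = 0.273 and 0.268) or edgeR (adjusted p = 0.127 and 0.159). The fold changes were -0.88 and -0.55 without luminal replicate 3, and -2.20 and -1.92 without luminal replicate 2.

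Wnt6 was seen in basal cells alone, at 157, 143, 0 and 0. Its 47 recovered reads were all basal, and against 3 reads in each luminal library the basal average was at least 1.98-fold higher. Wnt6 passed the filter only through the basal group, so its p-values are no support for a difference, and neither limma (adjusted p = 0.058) nor edgeR (adjusted p = 0.062) called it. Wnt7b, an epithelial ligand of branching organs, went the other way. It was at 163, 84, 445 and 249, so that both luminal libraries lay above both basal libraries, with an average 2.81-fold higher. The difference did not pass limma (log2 fold change 1.50 ± 0.63, adjusted p = 0.285) or edgeR (adjusted p = 0.198). Wnt9a was the other ligand with higher luminal values, at 25, 13, 77 and 62. It rests on 12 reads and was singled out after its values were seen. Wnt10b was at 88, 91, 0 and 31, so the luminal values rest on at most 1 read. Wnt2b, at 56, 130, 19 and 62, and Wnt11, at 69, 221, 77 and 31, overlapped between the groups. Wnt2, Wnt5b and Wnt10a stayed between 0 and 91 in every library. Wnt3, Wnt3a, Wnt7a and Wnt16 did not pass the filter and were between 0 and 31. Over the 7 ligands that passed the filter in both groups, 4 were at least 2-fold lower in luminal cells and 1 at least 2-fold higher, beside 12.0% and 12.4% of all genes that passed in both. limma and edgeR called 0 of the 11 ligands tested. Of all genes tested, limma called 0.438% lower and 0.256% higher, and edgeR 2.75% and 2.42%. An unadjusted limma p under 0.05 was found for 2 of the 11, Wnt5a and Wnt6, both on the lower side, beside 10.7% of all genes. Wnt6 is the one kept through the basal group alone.

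Wls encodes Wntless, the carrier without which Wnt proteins stay inside the cell. It was at 3300, 3059, 1065 and 1153, with libraries of a group close together and a gap between the groups. The basal average was 2.87-fold the luminal one. edgeR called Wls lower in luminal cells (adjusted p = 0.012), as did DESeq2 (adjusted p = 0.021), while limma did not (log2 fold change -1.52 ± 0.22, adjusted p = 0.063). The gene spans chr3:159839672-159938664 on the plus strand of GRCm38. Porcn, encoding the acyltransferase Porcupine, was between 56 and 125 in all libraries, and the groups overlapped.

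**Figure D2:**
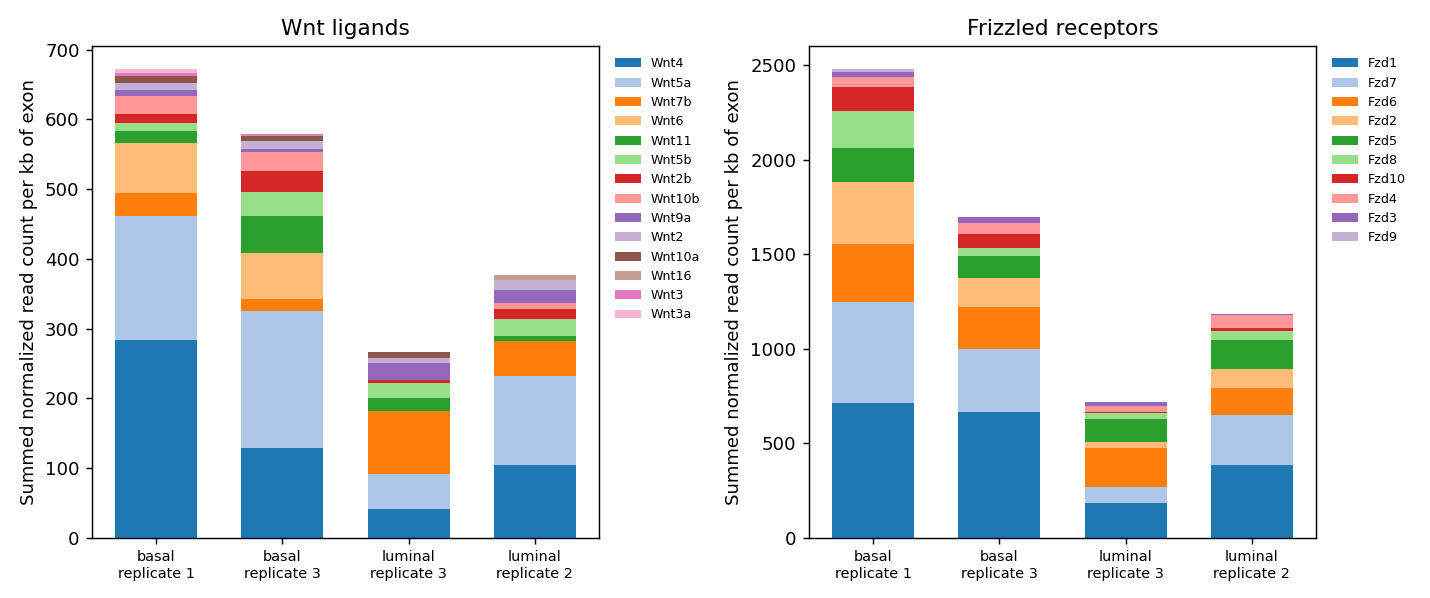
Normalized read count per kb of exon, summed over the Wnt ligands (left) and the Frizzled receptors (right) in each library, with 1 colour per gene. Wnt4 and Wnt5a made up 68.7% and 56.1% of the ligand sum in the basal libraries but 34.2% and 61.5% in luminal replicates 3 and 2, and Fzd5 and Fzd6 made up 45.5% of the Frizzled sum in luminal replicate 3 and 19.5% to 25.0% in the other 3 libraries.

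Among the Frizzled receptors, Fzd1 and Fzd7 had the highest basal levels per kb of exon, at 689 and 436 normalized counts per kb. Luminal averages per kb were 285 for Fzd1, 174 for Fzd6, 173 for Fzd7 and 138 for Fzd5. Fzd1 was at 2994, 2787, 774 and 1620 normalized counts. Fzd2 was at 1209, 552, 116 and 374. Fzd7, which acts in many epithelial stem cells, was at 2430, 1520, 387 and 1184. In each of the 3 genes both luminal libraries lay below both basal libraries, and luminal replicate 2 exceeded luminal replicate 3 by more than 2-fold. The log2 fold changes were -1.37 ± 0.39 for Fzd1, -1.97 ± 0.71 for Fzd2 and -1.50 ± 0.58 for Fzd7. Without luminal replicate 3 those of Fzd2 and Fzd7 were -1.13 and -0.70, and without luminal replicate 2 they were -2.81 and -2.31. edgeR adjusted p-values were 0.059, 0.077 and 0.111, and those of limma 0.150, 0.232 and 0.260.

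Fzd10 had the highest basal to luminal ratio of the 9 Frizzled genes tested, at 420, 234, 19 and 62, with a basal average 8.07-fold the luminal one. The luminal values are 1 and 2 reads, and neither limma (log2 fold change -3.15 ± 0.88, adjusted p = 0.138) nor edgeR (adjusted p = 0.057) called it. The fold change of Fzd10 was -2.32 without luminal replicate 3 and -3.98 without luminal replicate 2. Fzd5 and Fzd6 had smaller fitted differences than Fzd1, Fzd2 and Fzd7, and the contrast between these receptors was not tested. Fzd5 was at 1240, 805, 852 and 1060, with overlapping groups and a log2 fold change of -0.07 ± 0.33. Its sign turned positive (0.24) under the nuclear protein-coding scaling and (0.11) under quantile normalization. Fzd6 was at 1465, 1072, 987 and 686, lower in luminal cells without overlap, with a basal average 1.52-fold the luminal one and a log2 fold change of -0.61 ± 0.33 (limma adjusted p = 0.392). Together Fzd1, Fzd2 and Fzd7 made up 63.8% and 67.7% of the summed Frizzled level per kb in the basal libraries, with 41.8% for luminal replicate 3 and 63.3% for luminal replicate 2. In this share the luminal libraries differed from each other by more than luminal replicate 2 differed from the basal libraries. Between the luminal libraries, smooth muscle and fibroblast markers moved in the same direction as Fzd1, Fzd2 and Fzd7, with the sums given above. Between the basal libraries they moved in opposite directions: both marker sums were higher in replicate 3, where Fzd1, Fzd2 and Fzd7 were lower. The part of such cells in the result was not tested. Fzd3, at 332, 455, 310 and 93, was lower in luminal cells without overlap. Fzd4, at 326, 377, 213 and 436, and Fzd8, at 1159, 273, 174 and 280, overlapped. Fzd9 did not pass the filter, with 6 reads over the 4 libraries. The 9 Frizzled genes tested all passed the filter in both groups. Of them 5 were at least 2-fold lower and 0 higher, beside 12.0% and 12.4% of all genes that passed in both. limma and edgeR called 0 of the 9, where they called 0.438% and 2.75% of all genes tested lower. An unadjusted limma p under 0.05 on the lower side was found for 4, beside 10.7% of all genes tested.

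For all 5 co-receptors both luminal libraries lay below both basal libraries, beside 28.3% of all genes that passed the filter in both groups, and the median log2 fold change was -1.46. Ror1, a receptor tyrosine kinase for Wnt5a, was at 2355, 2137, 639 and 873. Its basal average was 2.97-fold the luminal one, and edgeR (adjusted p = 0.016) and DESeq2 (adjusted p = 0.028) called it, while limma did not (log2 fold change -1.59 ± 0.28, adjusted p = 0.069). Ror2, its paralogue, was at 983, 916, 136 and 405. The 2 luminal values of Ror2 were 7 and 13 reads, and the basal average was 3.51-fold higher (edgeR adjusted p = 0.044, limma adjusted p = 0.150). Its log2 fold change of -2.01 ± 0.58 became -1.23 without luminal replicate 3 and -2.79 without luminal replicate 2. Ryk, a Wnt receptor with an inactive kinase domain, was at 1584, 1020, 426 and 499. Its basal average was 2.82-fold the luminal one (edgeR adjusted p = 0.046, limma adjusted p = 0.088). Ror1 lies at chr4:100095791-100444765 on the plus strand, Ror2 at chr13:53109312-53286124 on the minus strand and Ryk at chr9:102834917-102908305 on the plus strand of GRCm38. The beta-catenin branch receptors Lrp5 and Lrp6 also had lower luminal values, and their difference from Ror1, Ror2 and Ryk was not tested. Lrp5 was at 2618, 2007, 1162 and 997 (log2 fold change -1.09 ± 0.26), and Lrp6 at 5943, 5820, 2614 and 3771 (-0.91 ± 0.26). Their edgeR adjusted p-values were 0.086 and 0.122, so neither was called.

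The R-spondin axis held the only member that limma called. Lgr6 was at 326, 234, 0 and 0, and its 88 recovered reads were all basal. Against 3 reads in each luminal library, the basal average of Lgr6 was at least 3.69-fold higher, and Lgr6 was called lower in luminal cells by limma (adjusted p = 0.048), edgeR (adjusted p = 0.017) and DESeq2 (adjusted p = 0.014). Lgr6 passed the filter only through the basal group, where it is high, so these p-values describe the libraries and are no independent support, and that of limma rests on 2 values of 0 to which 1 was added. With a filter that both groups had to pass, Lgr6 was not tested, and limma called Dkk3, Lgr4, Ror1 and Wls instead. The limma call of Lgr6 was lost without a filter on low values, with the filter at an average of 100, under median-ratio rescaling, and when either luminal library was left out. Lgr6 (ENSMUSG00000042793) lies at chr1:134983301-135105276 on the minus strand of GRCm38. Lgr4, its more abundant paralogue at 1155 normalized counts per kb in basal and 457 in luminal cells, was at 7334, 6262, 2672 and 2711. Its luminal libraries nearly coincided, and the basal average was 2.53-fold theirs. edgeR called Lgr4 lower in luminal cells (adjusted p = 0.019), and limma gave a log2 fold change of -1.33 ± 0.21 with an adjusted p of 0.066. The gene spans chr2:109917647-110014257 on the plus strand of GRCm38.

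Lgr5, the third receptor of the family and a stem cell marker in several epithelia, had another pattern. It was at 351, 1137, 387 and 1994, so that each group held a low and a high library. The libraries with high Lgr5, basal replicate 3 and luminal replicate 2, were also those with the highest fibroblast and smooth muscle marker sums, and the part of those cells in the values was not tested. The log2 fold change of Lgr5 was 0.48 ± 0.92 (limma adjusted p = 0.800), and it became -0.71 without luminal replicate 2 and -0.37 without basal replicate 1. Rspo3, an R-spondin ligand, was at 232, 416, 0 and 405, with the luminal libraries on either side of the basal replicate 1 value. The ubiquitin ligase genes Znrf3, at 2298, 1754, 1142 and 966, and Rnf43, at 1891, 883, 639 and 686, were both lower in luminal cells without overlap. Their log2 fold changes were -0.93 ± 0.27 and -0.96 ± 0.42, and their edgeR adjusted p-values were 0.147 and 0.187. Rspo1 did not pass the filter, with 7 reads over the 4 libraries.

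**Figure D3:**
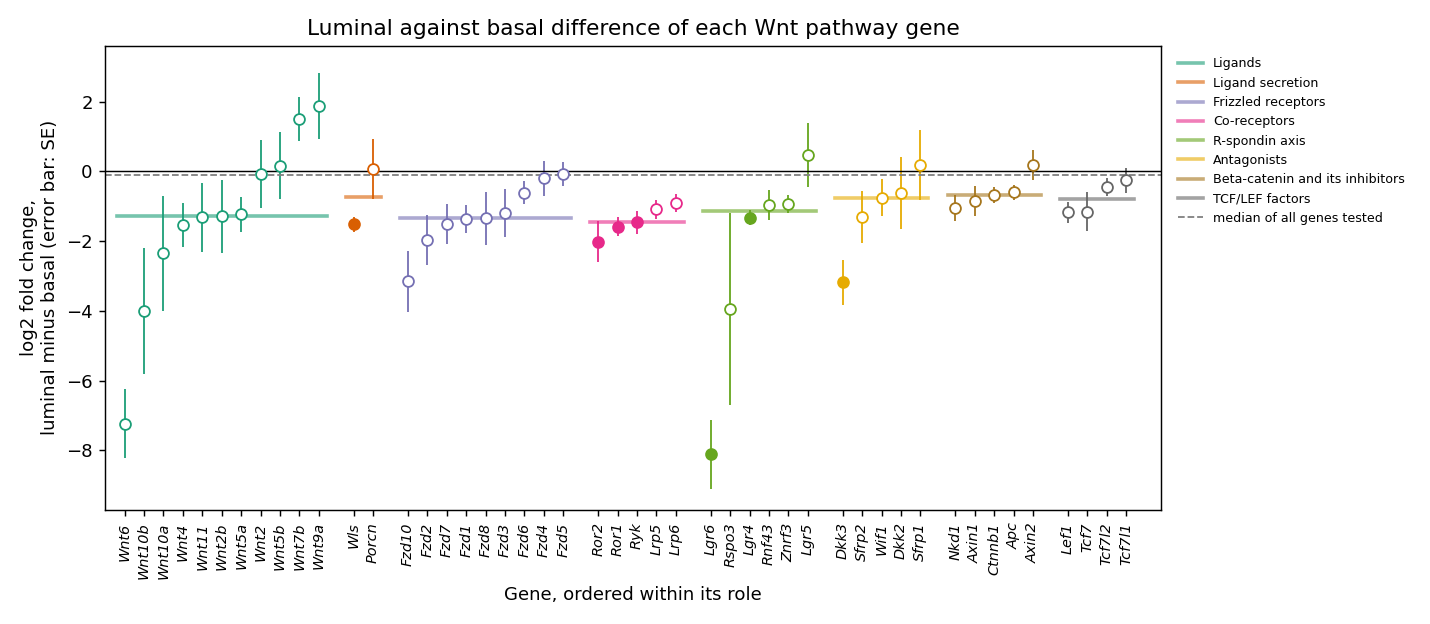
log2 fold change, luminal minus basal, with its standard error for the 47 Wnt pathway genes tested, ordered within each role (2 libraries per group, limma on log2 of the value plus 1). Filled points are the 7 genes that edgeR called, all below 0, thick lines are the medians of each role, and the dashed line is the median of all genes tested (-0.10). The values of Lgr6 and Wnt6, which were 0 in both luminal libraries, depend on the added 1 and are not estimates of size, and those of Rspo3, Wnt10a and Wnt10b, with 1 luminal library at 0, depend on it too.

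The 5 antagonists tested had a median log2 fold change of -0.75. limma called 0 and edgeR 1 of them lower in luminal cells, beside 0.438% and 2.75% of all genes tested. Dkk3, a divergent member of the Dickkopf family, was at 1284, 702, 174 and 62. The basal average of Dkk3 was 8.42-fold the luminal one, and it had the lowest edgeR adjusted p of the 54 members (0.008). DESeq2 called Dkk3 too (adjusted p = 0.003), while limma gave a log2 fold change of -3.18 ± 0.65 with an adjusted p of 0.071. The luminal values were 9 and 2 reads, and the fold change was -3.92 without luminal replicate 3 and -2.44 without luminal replicate 2. edgeR still called Dkk3 lower whichever of the 4 libraries was left out, the one member of which this was true. Dkk3 lies at chr7:112116017-112159057 on the minus strand of GRCm38. The other antagonists overlapped between the groups. Sfrp1, a secreted decoy with a Frizzled-like domain, was at 232, 1130, 271 and 1247. Its paralogue Sfrp2 was at 1641, 2371, 368 and 1745. Dkk2, which binds LRP5 and LRP6, was at 294, 221, 58 and 467. In each of these 3 genes luminal replicate 2 was more than 4-fold above luminal replicate 3, and for Sfrp1 the basal libraries differed by a similar factor, replicate 3 being the higher, as for Lgr5. Wif1, a secreted Wnt-binding protein, was at 338, 728, 232 and 374. Dkk1 did not pass the filter, with values between 0 and 31. Limma p-values for Sfrp1, Sfrp2, Dkk2 and Wif1 were between 0.135 and 0.863 before adjustment.

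The difference between the luminal libraries was unequal across roles. Luminal replicate 2 was above luminal replicate 3 in 34 of the 47 members, compared with 52.7% of all genes tested. The median log2 ratio of luminal replicate 2 to luminal replicate 3 was 0.45 over the members and 0.08 over all genes. By role it was 2.20 for the 5 antagonists, 1.03 for the 9 Frizzled genes, 0.60 for the 2 secretion genes, 0.49 for the TCF/LEF factors, 0.45 for the co-receptors, 0.18 for beta-catenin and its inhibitors, 0.09 for the ligands and 0.06 for the R-spondin axis. Dkk3, the one antagonist that edgeR called, went against its group with a log2 ratio of -1.47. The same ratio was 1.47 for the fibroblast markers, 3.22 for the smooth muscle markers and -0.73 for the luminal markers. Myh11, the smooth muscle myosin, was at 13026, 15447, 1413 and 21907. The part of such cells in the levels of the antagonists and Frizzled genes was not tested. Comparing single libraries, the median log2 ratio over the members was -1.21 and -1.26 for luminal replicate 3 against basal replicates 1 and 3, and -0.94 and -0.63 for luminal replicate 2.

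**Figure D4:**
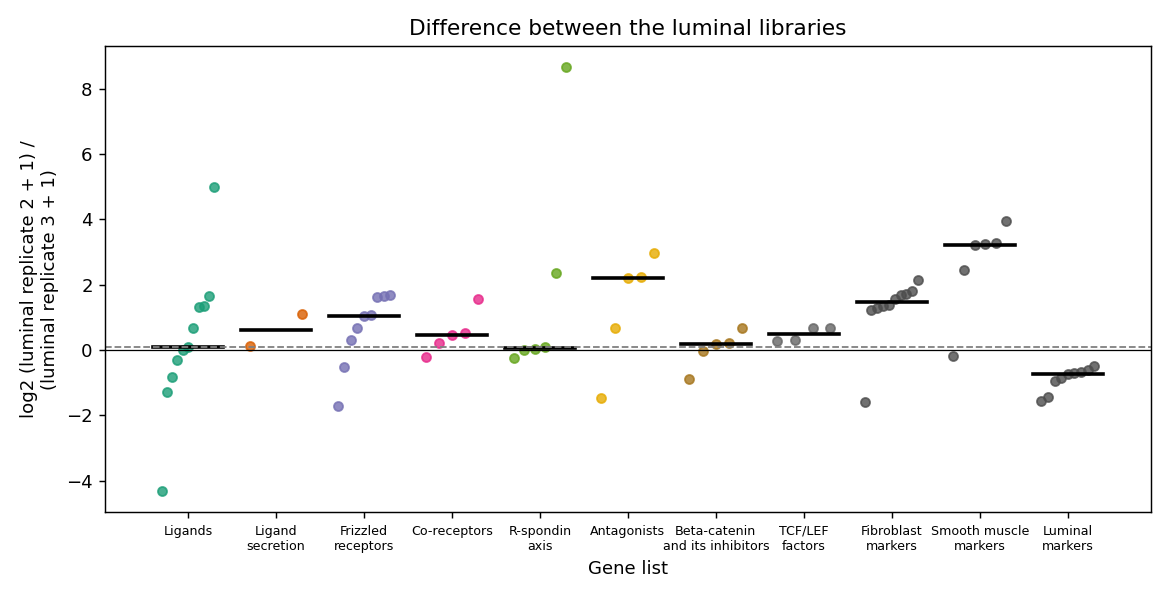
log2 ratio of luminal replicate 2 to luminal replicate 3, after adding 1 to each value, for every gene tested in each list. Black lines are list medians and the dashed line is the median of all genes tested (0.08). The antagonists (median 2.20) and Frizzled genes (1.03) lie on the side of the fibroblast (1.47) and smooth muscle (3.22) markers, and the luminal markers (-0.73) on the other side.

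For genes that act inside the cell, the median log2 fold change was -0.68 over the 5 genes of beta-catenin and its inhibitors and -0.80 over the 4 TCF/LEF factors. Ctnnb1, encoding beta-catenin, was at 13058, 11913, 7319 and 8320, and Apc, a scaffold of the complex that degrades it, at 6839, 6100, 4318 and 4207. Both were lower in luminal cells without overlap, by log2 fold changes of -0.68 ± 0.22 and -0.60 ± 0.21, and neither passed limma (adjusted p = 0.189 and 0.217). Axin1, another scaffold of that complex, was at 1021, 695, 639 and 343. Nkd1, a feedback inhibitor that binds Dishevelled, was at 683, 533, 271 and 312, with a basal average 2.09-fold the luminal one. Axin2, both a scaffold and a widely used transcriptional target of beta-catenin, was at 858, 494, 581 and 935. The groups overlapped for Axin2, with the lowest value in a basal and the highest in a luminal library, and the log2 fold change was 0.18 ± 0.43 (limma adjusted p = 0.841). Its sign turned negative without basal replicate 3 or without luminal replicate 2.

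Of the TCF/LEF factors, Lef1 showed the clearest separation, at 896, 1026, 387 and 467. Its log2 fold change was -1.17 ± 0.31 (limma adjusted p = 0.119, edgeR adjusted p = 0.121). Tcf7, at 269, 279, 97 and 156, had a basal average 2.17-fold the luminal one. Tcf7l2 was at 2536, 1955, 1472 and 1807 and Tcf7l1, which mainly represses, at 777, 689, 484 and 779. The groups overlapped for Tcf7l1 but not for Tcf7l2. limma and edgeR called 0 of the 4 factors, where they called 0.438% and 2.75% of all genes tested lower. Only Lef1, 1 of the 4, had an unadjusted limma p under 0.05, on the lower side, beside 10.7% of all genes.

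Promoters are shown for 3 members, since the members as a group leaned the same way and TCF/LEF factors are the pathway's own transcription factors. Windows from 250 bases before to 50 bases after the start site were taken from RefSeq on GRCm38.p6, where 37 of the 54 members had an entry, with 47 promoters in all. The letters CTTTGAT, a core form of the TCF/LEF motif, were searched on both strands, as were the variants that end in AA or TT in place of AT. A match of any of the 3 forms was present in 6 of the 47 promoters (12.8%), beside 13.9% of 32851 promoters in the whole table. Lgr6 (chr1:135105227-135105526, minus strand) is shown as the one limma call, Axin2 (chr11:108920099-108920398, plus strand) as the standard target gene, and Fzd7 (chr1:59481897-59482196, plus strand) as the promoter with a match whose gene had the highest basal level per kb. Capitals mark the match in Fzd7, on the minus strand at position -130 from the start site, and the other two hold none of the letters searched in these windows. Lgr6 and Fzd7 both had lower luminal values, and the groups overlapped for Axin2.
Lgr6: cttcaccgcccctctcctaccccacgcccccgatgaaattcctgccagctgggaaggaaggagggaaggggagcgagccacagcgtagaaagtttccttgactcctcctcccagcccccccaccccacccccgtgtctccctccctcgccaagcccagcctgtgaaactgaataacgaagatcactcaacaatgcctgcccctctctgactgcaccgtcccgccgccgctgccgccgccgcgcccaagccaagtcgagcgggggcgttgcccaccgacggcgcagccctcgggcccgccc
Axin2: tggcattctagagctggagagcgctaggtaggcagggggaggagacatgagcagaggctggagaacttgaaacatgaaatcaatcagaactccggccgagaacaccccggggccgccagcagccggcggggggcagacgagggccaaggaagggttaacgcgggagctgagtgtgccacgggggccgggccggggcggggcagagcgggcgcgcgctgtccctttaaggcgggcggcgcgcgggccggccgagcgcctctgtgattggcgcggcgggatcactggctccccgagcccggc
Fzd7: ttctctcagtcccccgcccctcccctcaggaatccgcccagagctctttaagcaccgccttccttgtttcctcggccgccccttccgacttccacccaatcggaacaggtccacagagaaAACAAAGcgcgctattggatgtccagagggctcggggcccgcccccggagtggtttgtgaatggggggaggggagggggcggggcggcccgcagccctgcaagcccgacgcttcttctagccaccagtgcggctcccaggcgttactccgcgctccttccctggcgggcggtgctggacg

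The rest of the pathway, 99 further genes listed by function and all found in the table, was tested in the 83 that passed the filter, where the median log2 fold change was -0.43. limma called 0 of them lower and 1 higher, beside 0.438% and 0.256% of all genes. At an unadjusted limma p under 0.05 there were 22 lower and 2 higher, beside 10.7% and 7.82%, and edgeR called 9 lower and 1 higher, beside 2.75% and 2.42%. The 7 further ligands and agonists (Wnt1, Wnt8a, Wnt8b, Wnt9b, Rspo2, Rspo4 and Ndp) did not pass the filter, and no value among them exceeded 6. A further list held antagonists together with other extracellular genes such as glypicans. In it Apcdd1, a membrane inhibitor of Wnt binding, was at 2073, 1929, 581 and 280, and edgeR called it lower in luminal cells (adjusted p = 0.008). Gpc4, a glypican, at 2186, 1611, 658 and 935, and Kremen1, a Dickkopf receptor, at 1209, 935, 465 and 654, were lower without overlap but not called. In the cytoplasm, Tnks2, whose product tankyrase 2 promotes the degradation of Axin, was at 10578, 9315, 3621 and 3740 (edgeR adjusted p = 0.012). Dvl1, a Dishevelled, was higher in luminal cells without overlap, at 708, 591, 1046 and 1153, and Ctbp2, a corepressor, lower at 2505, 1994, 1278 and 1527, and neither was called.

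Planar polarity and other non-canonical genes included 3 edgeR calls, all lower in luminal cells, out of 22 tested, beside 2.75% of all genes. Vangl1, a core polarity protein, was at 3996, 3118, 929 and 499 (edgeR adjusted p = 0.003). Ptk7, a pseudokinase co-receptor, was at 1954, 2163, 445 and 997 (adjusted p = 0.039). Nfatc1, a calcium-regulated transcription factor, was at 4657, 3865, 813 and 1901 (adjusted p = 0.020). The nuclear cofactors had 0 calls by limma or edgeR among 13 tested, where these called 0.438% and 2.75% of all genes lower. They had 1 unadjusted limma p under 0.05, on the lower side, beside 10.7% of all genes. The genes with the lowest limma p were Crebbp at 13177, 13368, 8636 and 9224, Tle4 at 1735, 2085, 1220 and 1309, and Bcl9 at 1058, 734, 542 and 530.

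Genes described as Wnt targets in various tissues moved in both directions. Of 17 tested, edgeR called 4 lower and 1 higher in luminal cells, beside the same shares of all genes. Edn1, encoding the peptide endothelin 1, was at 589, 533, 3776 and 2867, and both limma (log2 fold change 2.55 ± 0.27, adjusted p = 0.041) and edgeR called it higher. Cd44, an adhesion receptor, was at 12312, 14252, 4124 and 2150, and Tnfrsf19 at 2793, 1734, 929 and 779, with edgeR adjusted p-values of 0.006 and 0.043. The other two lower calls, named after their values were seen, were Id2 at 2010, 1871, 581 and 966 and Fosl1 at 1685, 3956, 1007 and 779.

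Leaving out libraries changed the number of members called. edgeR called 4 members lower without basal replicate 1 and 11 without basal replicate 3, where it called 452 of 18932 and 496 of 19233 genes lower. It called 12 without luminal replicate 2, beside 636 of 18823 genes, and 1, Dkk3, without luminal replicate 3, beside 235 of 20713 genes. Lgr6, Ror1 and Wls were called in all of these settings but the last, while Lgr4 was also lost without basal replicate 1, Ror2 without either basal library, and Ryk without basal replicate 1 or luminal replicate 2. The median log2 fold change of the members went from -1.15 to -0.81 without luminal replicate 3, while the all-gene median went from -0.10 to 0.16, so the gap between them changed little. With 2 libraries against 2, an exact two-sided permutation test of a single gene cannot go below p = 0.333, so no such test was used.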

How the data were processed

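RNA-seq was performed on sorted cells with the Ovation Solo kit, per the labels. According to the submitters' processing notes, STAR, Picard, HTSeq and the GRCm38 (mm10) genome were used. Genes were those of an Ensembl annotation of GRCm38, per the study's methods. Tool versions, the counting mode and the use of strand are not given in the sources used here. The authors scaled gene counts by each library's aligned reads, and the deposited values are this normalized signal per gene and library, rounded to whole numbers. All columns were mapped to samples (0 were not).

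The filter kept a gene if 1 group or both had all libraries at 10 or higher and an average of 20 or higher. limma 3.58.1 was fitted to log2(value + 1) with a trended prior over the 18737 genes kept, so fold changes are on that scale and those of genes with a library at 0 depend on the added 1 (Rspo3 had -3.95 by limma and -0.88 by edgeR, Wnt10b -4.00 and -2.71, Wnt10a -2.35 and -0.82), and p-values were adjusted by Benjamini-Hochberg over all of them. Whole reads were recovered from the spacing of low values, of which 97.8% to 99.0% lay on it. edgeR 4.0.16 (quasi-likelihood test) and DESeq2 1.42.0 were run on these reads as alternatives. A further 533 genes had values on another spacing, and 0 of the Wnt genes were among them. R 4.3.3, numpy 2.4.6, pandas 2.3.3 and matplotlib 3.10.9 were used. Symbols, coordinates and exon lengths came from GENCODE M21 (GRCm38), in which 49412 of the 49671 identifiers were found. Exons of Wnt5a, Wnt7b, Wnt11, Fzd5, Fzd6, Rspo3, Sfrp2, Ctnnb1, Axin2, Tcf7l1 and Lef1 overlap a gene on the opposite strand, over 3.15% to 17.8% of their length. These values are uncertain if strand was not used.

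The pathway genes and all lists were chosen with earlier results of these data known. Values in every library are given for 42 members: those with an average of 100 or more, called by limma or edgeR, or past the 2-fold threshold with 20 or more reads. Wnt9a was added outside this rule. Of other pathway genes, those called by limma and up to 3 per list with the lowest limma p at that average are named. On simulated libraries with 200 genes changed 4-fold, limma recovered 0%, edgeR 44.5% and DESeq2 41.0% among 19179 genes. At 16-fold they recovered 50.5%, 99.0% and 97.5% among 19210 genes. Alternatives changed the filter, pseudocount, scaling, fold threshold and model, and left out each library. Floors of 3 reads cover counting error only.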

Additional observations from a re-analysis of the deposited data

How the results depend on the processing

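limma called 1 member lower in luminal cells, beside 82 of all genes. Its count was 0 without the filter and under median-ratio rescaling, 2 without the trended prior, 3 under quantile normalization, 4 with every library and both groups passing the filter or at an average of 100 or more (added after seeing the data), and 6 at a pseudocount of 10. edgeR gave 7 and DESeq2 5, beside 515 and 416 of all genes. Leaving out a library, where the lone sample of a group is assumed to vary like the other group, gave 0 to 3, beside 14 to 751 of all genes. limma called 0 members higher under all of these. Over all genes limma's lower calls moved too (0 without the filter, 60 under median-ratio rescaling, 321 without the trended prior, 669 under quantile normalization, 409 with both groups passing, 316 at an average of 100 or more and 319 at a pseudocount of 10). Members at least 2-fold lower numbered 15 (main 24) on nuclear protein-coding scaling, and members 2-fold higher 4 without the filter and 1 under either stricter filter (main 2). At a fold of 4 there were 5 and 0. Left-out libraries gave 20 to 27 lower and 2 to 5 higher. The median of the members was -0.81 on nuclear protein-coding scaling and -1.15 to -0.81 with a library left out. edgeR's count ranged from 1 to 12 with a library left out (added after seeing the data). Signs turned for genes near 0: Fzd4 to 0.11 and Tcf7l1 to 0.056 (nuclear protein-coding scaling), Fzd5 to 0.24 (the same) and 0.11 (quantile). With a library left out, log2 fold changes ran from -0.72 to 0.31 for Fzd4, -0.38 to 0.24 for Fzd5, -8.28 to 0.38 for Rspo3, -0.71 to 1.66 for Lgr5, -0.96 to 1.32 for Sfrp1, -2.12 to 0.87 for Dkk2, -0.22 to 0.58 for Axin2 and -0.60 to 0.090 for Tcf7l1. No paired analysis was possible because the groups share only replicate number 3.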
